A study of Mus musculus with 49 samples.

Results

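ATP-binding cassette (ABC) transporters that export drugs, conjugates and sterols from cells were followed as 9 genes, Abcg2, Abcb1a, Abcb1b, Abcc1, Abcc3, Abcc4, Abcc5, Abca1 and Abcg1. They were picked by symbol, without use of their values, and each matched a single row among the 38253 genes of the deposited table. RNA from 49 mouse samples in 10 groups was sequenced, to ask how MLL-AF9 (MA9) leukaemias carry the expression state of the cell in which they arose. All mice were C57BL/6J females given as 6 to 12 weeks old. The 30 normal samples were bone marrow cells sorted by surface markers. There were 5 LT-HSC and 5 ST-HSC samples (stem cells with long-term and short-term capacity to repopulate), 6 MPP samples (progenitors still multipotent) and, of committed progenitors, 5 CMP (common myeloid), 5 GMP (granulocyte and macrophage) and 4 MEP (megakaryocyte and erythrocyte) samples. The 19 leukaemias were started by retroviral transfer of the MLL-AF9 fusion with a GFP reporter into one sorted population and transplantation into sublethally irradiated mice, and are named for that population: 3 STHSC:MA9, 6 MPP:MA9, 4 CMP:MA9 and 6 GMP:MA9. All groups carry the label WT as genotype, the fusion being supplied by the virus. Leukaemic mice were sacrificed when ill, and so were older than at transplantation. The paper reports the longest median survival for GMP:MA9, so this time cannot be told apart from the origin. The methods describe bulk GFP+ cells sorted from spleen for the leukaemias, whereas the labels give bone marrow as tissue, and normal samples carried no virus. Each sample came from an individual mouse, so p-values measure the spread between mice. The samples came from replicate experiments that the labels do not tell apart, and whether leukaemias shared a transduction is not given. Any difference between tissues of collection, between virus-exposed and unexposed cells, or in time after transplantation cannot be told apart from the leukaemia.

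ABC transporters bind and hydrolyse ATP at cytoplasmic domains and use the energy to move substrates across a membrane. Abcg2, the breast cancer resistance protein, and the P-glycoproteins encoded by Abcb1a and Abcb1b pump dyes and many cytotoxic drugs outwards, and the efflux of Hoechst dye by Abcg2 is what defines the side population of blood stem cells. The Abcc members are multidrug resistance proteins that export organic anions, glutathione and glucuronide conjugates, cyclic nucleotides and eicosanoids. Abca1 and Abcg1 hand cholesterol to lipoproteins, are target genes of the liver X receptors (LXR), and are known in mice for restraining the growth of haematopoietic progenitors.

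Abcb1a (ENSMUSG00000040584, chr5:8660077-8748575) and Abcb1b (ENSMUSG00000028970, chr5:8798147-8866314) lie side by side on the plus strand of assembly NCBIM37, and their values rest in part on reads that could come from either gene. Of all 31-base windows of their exons, 21.4% in Abcb1a and 26.3% in Abcb1b also occurred in another gene, nearly all of them in the other copy. Of 27 coding exons in each gene, 10 of the 23 that are equally long differed at 5 or fewer bases and 8 at more than 20, and the longest identical coding run was 338 bases. Exon 13 is shown as a stretch that could separate the genes at 1 base only, and exon 11 as a stretch that could at 27. Both were read from NCBIM37, with bases that differ between the copies in capitals. In exon 13 (chr5:8702369-8702572 in Abcb1a, chr5:8824689-8824892 in Abcb1b) 1 of 204 bases differed, and in exon 11 (chr5:8701867-8701977 and chr5:8824187-8824297) 27 of 111 did.
Abcb1a exon 13: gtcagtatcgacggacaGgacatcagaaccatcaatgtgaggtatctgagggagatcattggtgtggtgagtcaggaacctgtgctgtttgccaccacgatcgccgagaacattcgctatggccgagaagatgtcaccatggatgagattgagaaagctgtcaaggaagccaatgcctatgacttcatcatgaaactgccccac
Abcb1b exon 13: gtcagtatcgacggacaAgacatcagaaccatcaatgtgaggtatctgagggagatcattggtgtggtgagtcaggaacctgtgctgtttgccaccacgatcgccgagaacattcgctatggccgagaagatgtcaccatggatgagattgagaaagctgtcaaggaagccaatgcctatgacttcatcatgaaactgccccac
Abcb1a exon 11: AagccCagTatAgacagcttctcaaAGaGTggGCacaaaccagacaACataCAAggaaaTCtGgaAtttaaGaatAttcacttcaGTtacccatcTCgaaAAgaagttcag
Abcb1b exon 11: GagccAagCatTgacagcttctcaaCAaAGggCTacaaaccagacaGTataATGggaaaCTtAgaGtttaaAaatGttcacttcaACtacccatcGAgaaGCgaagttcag

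Abcg2 (ENSMUSG00000029802, chr6:58534517-58642863, plus strand) spans a long gene with several start sites, and the table gives 1 value for all of them. A RefSeq table held 250-base windows upstream of the start for 6 of the 9 transporters (assembly GRCm38.p6), with 3 windows for Abcg2. These are shown because Abcg2 was the transporter with a called difference at every origin, and the window of Abca1 (ENSMUSG00000015243, chr4:53043659-53172767, minus strand in NCBIM37) because it also fell. Capitals mark matches on either strand to the GC box GGGCGG, the CCAAT box CCAAT, the TATA box TATAAA and the nuclear receptor half-site AGGTCA. Over all 32851 windows of this length, 32.7% held the GC box, 33.8% the CCAAT box, 12.4% the TATA box and 14.0% the half-site. The 3 Abcg2 windows lie at chr6:58584283-58584532, chr6:58596422-58596671 and chr6:58640296-58640545 (plus strand), and the Abca1 window at chr4:53159896-53160145 (minus strand).
Abcg2 start 1: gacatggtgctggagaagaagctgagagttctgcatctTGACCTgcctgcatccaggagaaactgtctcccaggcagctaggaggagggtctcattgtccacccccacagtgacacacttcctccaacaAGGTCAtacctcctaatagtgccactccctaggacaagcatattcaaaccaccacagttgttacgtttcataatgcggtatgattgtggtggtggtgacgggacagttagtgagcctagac
Abcg2 start 2: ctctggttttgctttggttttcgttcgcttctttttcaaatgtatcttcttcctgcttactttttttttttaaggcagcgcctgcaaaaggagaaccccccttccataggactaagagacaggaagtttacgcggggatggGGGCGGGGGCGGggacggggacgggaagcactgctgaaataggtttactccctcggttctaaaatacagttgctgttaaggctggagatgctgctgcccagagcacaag
Abcg2 start 3: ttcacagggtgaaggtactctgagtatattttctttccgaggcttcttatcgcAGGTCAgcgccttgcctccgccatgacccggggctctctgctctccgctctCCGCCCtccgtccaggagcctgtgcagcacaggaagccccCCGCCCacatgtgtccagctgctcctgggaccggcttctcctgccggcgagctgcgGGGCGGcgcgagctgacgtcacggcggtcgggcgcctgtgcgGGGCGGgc
Abca1: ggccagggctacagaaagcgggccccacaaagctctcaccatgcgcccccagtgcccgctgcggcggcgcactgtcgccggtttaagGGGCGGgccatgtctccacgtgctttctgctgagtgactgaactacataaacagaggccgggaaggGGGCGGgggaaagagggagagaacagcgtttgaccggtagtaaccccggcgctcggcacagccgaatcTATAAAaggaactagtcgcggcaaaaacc

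The Abcg2 windows differed from each other, with 2 half-sites and no GC box at the most upstream start, 2 adjoining GC boxes at the next, and 4 GC boxes and 1 half-site at the most downstream one. GC content of these windows was 51.2%, 50% and 67.6%. Abca1 held 2 GC boxes and a TATA box 29 to 24 bases before its start. Abcb1b held 1 GC box and 2 CCAAT boxes in its window, and the window of Abcb1a had no match to any of the 4 motifs.

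Expression is given in FPKM, fragments scaled to transcript length and to the mapped total of the library, as the authors deposited it, so levels of different genes can be compared per length. Each sample had 15282 to 17852 genes with a value above 0. Read totals are not part of the table, and the relative depth estimated from low values ran from 0.497 to 1.54 of the median sample. Of single markers, Hlf was at 35.1 to 182 FPKM in the LT-HSC, ST-HSC and MPP samples, a range given for these groups together. Mpo was at 10745 to 14354 in GMP and Gata1 at 49.5 to 55.3 in MEP, and no list held CMP markers. The summed FPKM of 8 MEP markers was 4521 to 5082 in MEP, against at most 3976 in CMP. That of 10 megakaryocyte markers was at most 66.4 in MEP, below every CMP, LT-HSC and ST-HSC sample (lowest 211, 209.6 and 401). Leukaemias had the monocyte gene Adgre1 at 30.8 to 52.8 FPKM and Gata1 at 0.41 or lower. Their sum of 12 monocyte and macrophage markers, 549 to 1715 FPKM, overlapped that of GMP, 1275 to 2146. Some libraries stood apart. The summed FPKM of 10 granulocyte markers was 75063 and 30284 in LT-HSC replicates 4 and 5 and 42686 and 8811 in ST-HSC replicates 4 and 5, against 24.4 to 1223 in the other 6 samples of these groups. In leukaemias the same sum ran from 1005 to 52417, highest in MPP:MA9 replicate 2. Without these normal libraries the counts of called transporter differences given next were again 8 for leukaemia against normal and 10 among normal cells. Other marker sums were uneven too. That of 10 erythroid markers reached 51547 FPKM in LT-HSC and 27831 in ST-HSC, against 725 to 2455 in MEP. That of 10 B cell markers reached 228 in LT-HSC and 430 in MEP.

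**Figure D1:**
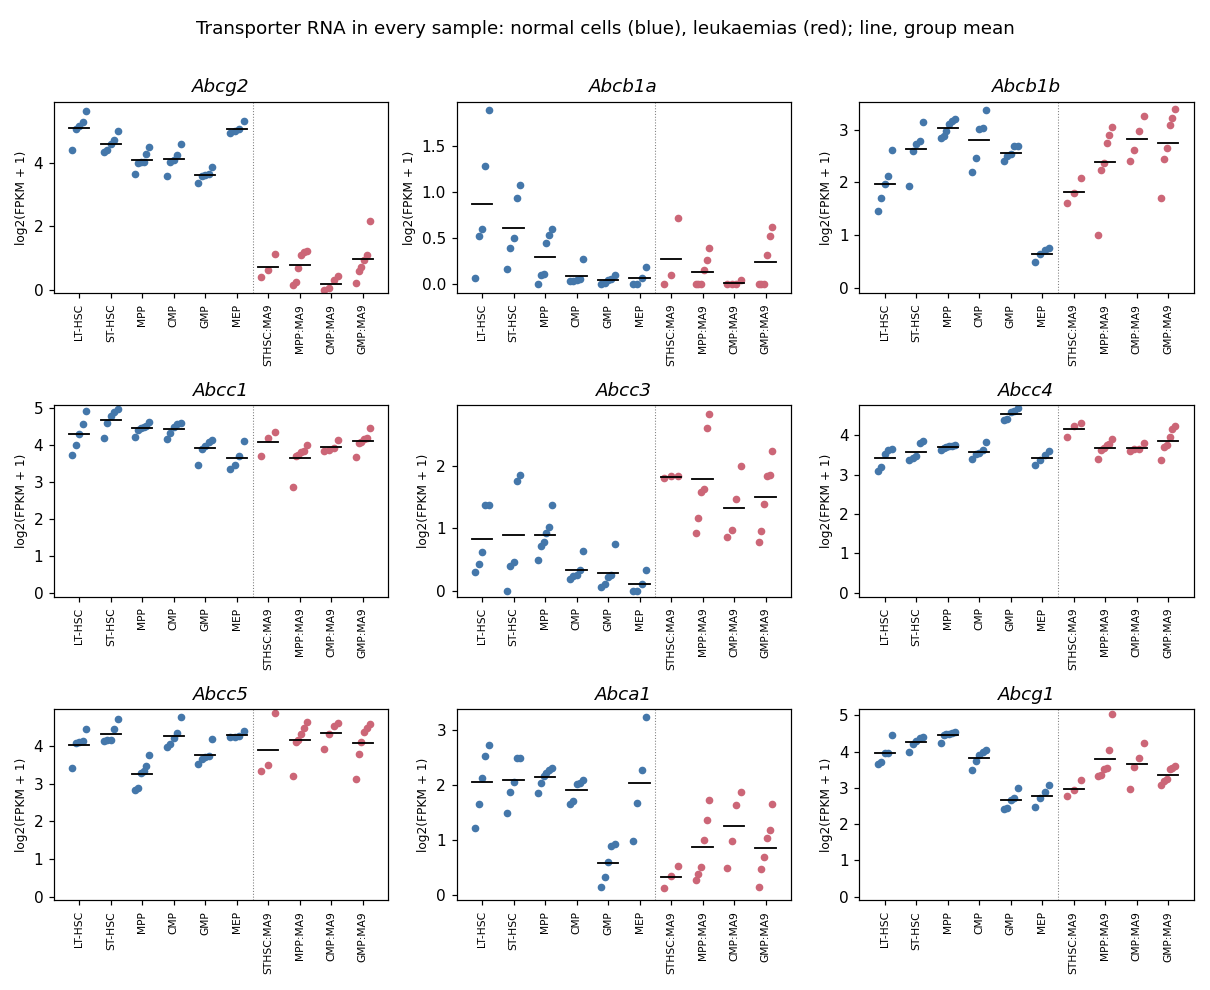
Level of each transporter in each of the 49 samples, as log2(FPKM + 1) on the vertical axis, with the 10 groups along the horizontal axis. Points are samples (normal blue, leukaemia red), short lines are group means. All 19 leukaemias lie below all 30 normal samples for Abcg2, Abcb1b is low in MEP, and Abca1 and Abcg1 are low in GMP.

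Summed over the 9 genes, transporter RNA had a higher mean in each normal group than in each leukaemia group, with overlap and without a test. For GMP and MEP this order rests on Abcg2, with means of 11.4 and 33.1 FPKM there and 0.16 to 1.17 in the leukaemia groups. The sum was 104 ± 23.0 FPKM in LT-HSC (SD, n = 5), 108 ± 11.1 in ST-HSC (n = 5), 90.8 ± 5.24 in MPP (n = 6), 90.1 ± 4.75 in CMP (n = 5), 71.9 ± 3.63 in GMP (n = 5) and 83.9 ± 6.43 in MEP (n = 4). In the leukaemias it was 62.7 ± 3.67 for STHSC:MA9 (n = 3), 65.6 ± 5.80 for MPP:MA9 (n = 6), 67.7 ± 5.00 for CMP:MA9 (n = 4) and 67.1 ± 7.95 for GMP:MA9 (n = 6). The leukaemia groups overlapped each other. The highest sums of MPP:MA9 (74.2), CMP:MA9 (73.4) and GMP:MA9 (78.4) exceeded the lowest of GMP (67.9) and of LT-HSC (70.98), and that of GMP:MA9 also the lowest of MEP (75.1). The make-up of the sum differed too. Abcg2 made up 33.4% ± 3.69 of the sum in LT-HSC and 39.5% ± 4.30 in MEP, but 0.235% ± 0.242 in CMP:MA9 and 1.77% ± 1.97 in GMP:MA9. On average Abcc5 contributed most in MPP:MA9 (26.8%) and CMP:MA9 (29.0%), and Abcc1, Abcc4 and Abcc5 had similar shares in STHSC:MA9 (26.3%, 27.5% and 24.9%) and in GMP:MA9 (24.9%, 20.6% and 24.5%).

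**Figure D2:**
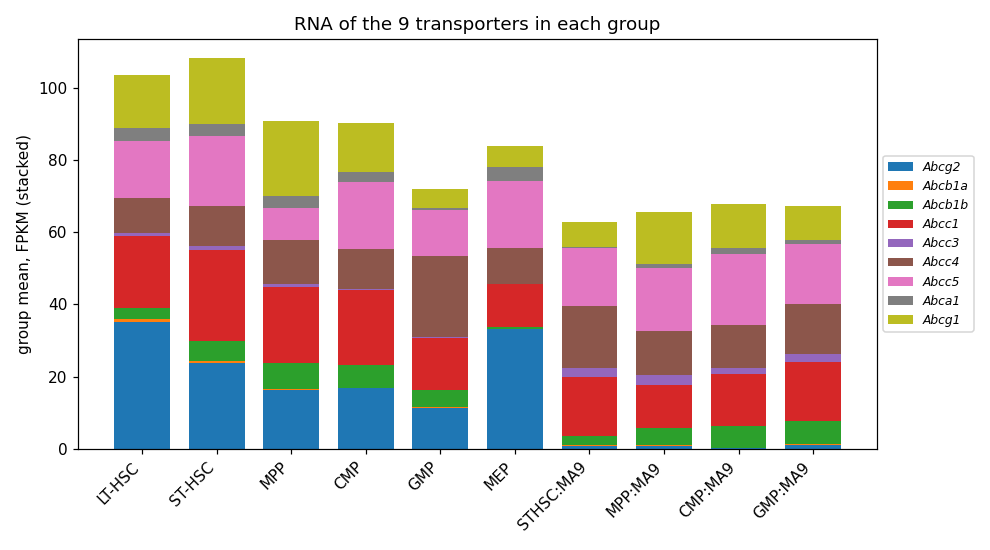
Mean FPKM of each transporter in each of the 10 groups (vertical axis, from 0), stacked so that the height is the summed level. The Abcg2 layer at the bottom reaches 35.0 FPKM in LT-HSC and 33.1 in MEP and is close to 0 in the 4 leukaemia groups.

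To examine how transporters changed on transformation, each leukaemia was compared with its normal cell of origin. A difference was called where the adjusted p (limma on log2(FPKM + 1), Benjamini-Hochberg over all genes tested) was below 0.05 and the change was over 2-fold. Abcb1a, with a mean under 1 FPKM, was not tested. Of 32 tests on the other 8 transporters, 8 were called, 1 higher and 7 lower in leukaemia, from 4 genes, and 14 more passed the p-value with a smaller change. Over all 12600 genes 25.4% of such tests were called, so the share among transporters (25%) was close to the background. The share of all genes that passed the p-value with a smaller change is not given. For the ST-HSC origin 3 transporters were called, all lower (24.2% of all genes called, 11.9% lower), and for MPP 2, both lower (27.1%, 13.6% lower). For CMP 1 was called, lower (27.8%, 14.8% lower), and for GMP 1 higher and 1 lower (22.4%, 13.5% higher and 8.87% lower). The median difference of the tested transporters was -0.71, -0.64, -0.09 and 0.24 on the log2 scale for the ST-HSC, MPP, CMP and GMP origins, beside -0.04, -0.09, -0.16 and 0.00 over all genes.

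**Figure D3:**
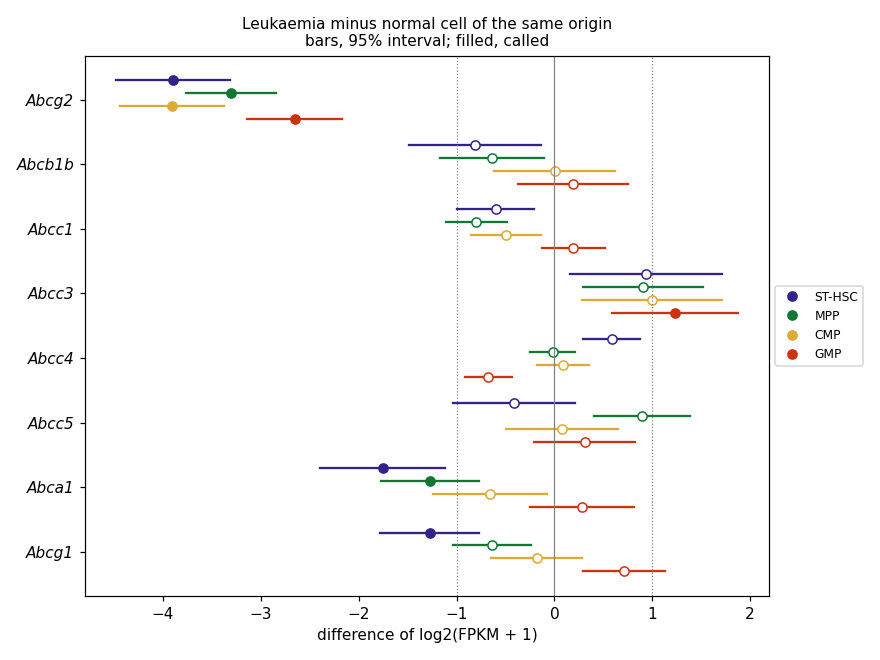
Difference of log2(FPKM + 1) between each leukaemia and the normal cell of the same origin (horizontal axis) for the 8 tested transporters. Bars are 95% intervals, colours are the 4 origins, filled points were called, and dotted lines mark 2-fold. Abcg2 is called at all 4 origins, with values from -3.91 to -2.66, and Abca1 and Abcg1 run from below 0 at the ST-HSC origin to above 0 at the GMP origin.

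Abcg2 fell in leukaemias of every origin. ST-HSC samples had 31.1, 25.4, 23.1, 19.2 and 20.05 FPKM, and STHSC:MA9 samples 0.32, 1.18 and 0.54. MPP samples ranged from 11.5 to 21.8 (median 15.3) and MPP:MA9 samples from 0.11 to 1.36 (median 0.88). CMP samples had 15.4, 10.9, 18.0, 16.2 and 23.1, and CMP:MA9 samples 0.00, 0.36, 0.24 and 0.04. No leukaemia overlapped its normal group, and the same held for GMP, with 9.40, 11.3, 11.5, 13.8 and 11.1 FPKM against 0.16 to 3.55 (median 0.80) in GMP:MA9. Across the table the highest leukaemia, GMP:MA9 replicate 2 with 3.55 FPKM, lay below the lowest normal sample, GMP replicate 1 with 9.40. The log2 difference was -3.90 (SE 0.29, adjusted p = 1.07e-13) for ST-HSC, -3.31 (SE 0.23, adjusted p = 5.41e-15) for MPP, -3.91 (SE 0.26, adjusted p = 9e-15) for CMP and -2.66 (SE 0.24, adjusted p = 2.13e-11) for GMP. In ratios of mean FPKM, Abcg2 was 35.0-fold, 20.6-fold, 104-fold and 9.78-fold lower in leukaemia, in that order. Replicate 2 of each of 3 leukaemia groups weighed on these ratios, which were 55.3-fold without STHSC:MA9 replicate 2, 179-fold without CMP:MA9 replicate 2 and 16.5-fold without GMP:MA9 replicate 2. Without ST-HSC replicates 4 and 5 the ST-HSC difference was -4.06. In such bulk samples, fewer cells that express a gene and less RNA per cell cannot be told apart.

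Of the normal groups Abcg2 was highest in LT-HSC and MEP. LT-HSC samples had 20.15, 49.2, 35.1, 32.6 and 38.0 FPKM, and MEP samples 38.96, 29.9, 32.4 and 30.95. The ranges of these groups overlapped, and every MEP sample lay above every CMP and GMP sample. MEP exceeded GMP (log2 difference of GMP minus MEP -1.46, SE 0.20, adjusted p = 7.66e-07), whereas CMP minus MEP was -0.97 (adjusted p = 0.000483), just short of 2-fold. That difference was called with a pseudocount of 0.1 (-1.01), under median-ratio scaling (-1.13), after the correction for GC content and length (-1.23) and without any one of CMP replicates 3 and 5 or MEP replicates 2 and 4. From stem cells onwards the steps were small, 0.51 for LT-HSC minus ST-HSC (adjusted p = 0.0982), 0.53 for ST-HSC minus MPP (adjusted p = 0.0411), -0.03 for MPP minus CMP and 0.49 for CMP minus GMP (adjusted p = 0.0457). Which of them passed the p-value depended on the processing. Under median-ratio scaling CMP minus GMP was 0.27 (adjusted p = 0.247) and LT-HSC minus ST-HSC 0.65 (adjusted p = 0.0225). After the correction for GC content and length ST-HSC minus MPP was 0.41 (adjusted p = 0.0834).

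The cholesterol transporters Abca1 and Abcg1 fell in leukaemias from ST-HSC, and Abca1 also in those from MPP. Abca1, which loads cholesterol onto apolipoprotein A-I, had 1.82, 4.63, 3.16, 4.66 and 2.69 FPKM in ST-HSC and 0.44, 0.27 and 0.09 in STHSC:MA9. MPP samples ranged from 2.61 to 3.96 (median 3.59) and MPP:MA9 samples from 0.20 to 2.32 (median 0.71). Neither pair of groups overlapped. The log2 difference was -1.75 (SE 0.31, adjusted p = 1.64e-05) for ST-HSC and -1.27 (SE 0.25, adjusted p = 3.52e-05) for MPP, and mean FPKM was 12.7-fold and 3.56-fold lower. CMP had 3.25, 3.13, 2.27, 2.15 and 3.07 FPKM and CMP:MA9 0.40, 2.69, 0.98 and 2.11, which overlapped. Their difference of -0.66 (adjusted p = 0.0484) was not called. GMP was already low, with 0.26, 0.11, 0.86, 0.90 and 0.51 FPKM, and GMP:MA9 ranged from 0.10 to 2.15 (median 0.83), a difference of 0.28 (adjusted p = 0.364).

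Abcg1 (ENSMUSG00000024030, chr17:31194643-31252722, plus strand), which passes cholesterol to high-density lipoprotein, had 17.5, 14.9, 19.6, 18.6 and 20.2 FPKM in ST-HSC and 5.84, 6.70 and 8.27 in STHSC:MA9. All ST-HSC samples were above all STHSC:MA9 samples, and the log2 difference was -1.28 (SE 0.25, adjusted p = 5.48e-05). MPP ranged from 17.8 to 22.1 (median 21.3) and MPP:MA9 from 8.99 to 32.1 (median 10.6). They overlapped through MPP:MA9 replicate 2 at 32.1 FPKM alone. The difference of -0.64 (adjusted p = 0.00516) was -0.89 (adjusted p = 8.37e-06) without that library, which also had the highest granulocyte sum. The part of that library's granulocyte RNA in the value was not tested. CMP had a mean of 13.4 FPKM and CMP:MA9 of 12.2 (log2 -0.18, adjusted p = 0.512). GMP lay lower, at 4.36, 4.49, 7.04, 5.35 and 5.54 FPKM, and all GMP:MA9 samples were above it at 7.51 to 11.1 (median 9.52). That difference, 0.71 (SE 0.21, adjusted p = 0.00346), was under 2-fold. Over the 49 samples log2(FPKM + 1) of Abca1 and Abcg1 had a Pearson correlation of 0.57, and of 0.55 in the 30 normal and 0.71 in the 19 leukaemia samples, points that share groups and libraries.

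Among normal cells both sterol transporters fell from CMP to GMP. Abca1 differed by 1.33 (SE 0.30, adjusted p = 0.000949) and Abcg1 by 1.18 (SE 0.14, adjusted p = 2.53e-07), with no overlap for either gene. Abcg1 stayed low in MEP, at 5.55, 6.36, 4.52 and 7.37 FPKM (CMP minus MEP 1.05, adjusted p = 4.51e-06), whereas Abca1 in MEP was spread from 0.98 to 8.43 and above GMP (GMP minus MEP -1.46, adjusted p = 0.000387). The Abcg1 steps were 0.97 and 0.90 under median-ratio scaling and 0.85 and 0.81 after correction for GC content and length, below 2-fold with the p-value still passed, and the step to MEP was 0.95 without MEP replicate 3. Abcg1 was also higher in the mean of LT-HSC, ST-HSC and MPP, 17.9 FPKM, than in the mean of CMP, GMP and MEP, 8.23 (log2 1.13, SE 0.08, adjusted p = 1.43e-11). It was the only one of 7 tested transporters called in that contrast, in which 6.43% of all genes were called.

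The P-glycoprotein genes were expressed at unequal levels. Abcb1b had a mean of 4.95 FPKM over the 49 samples (0.40 to 9.45) and Abcb1a 0.26 (0.00 to 2.71). Abcb1a reached 0.52, 2.71, 1.44, 0.05 and 0.44 FPKM in LT-HSC and 0.91, 0.42, 1.11, 0.12 and 0.31 in ST-HSC. In both groups replicate 4, one of the libraries with many granulocyte transcripts, was the lowest. Elsewhere it was at or below 0.65, and at 0.00 in 3 of 4 CMP:MA9 samples. It fell below the filter of a mean of 1 FPKM. With no filter, its level differed among the 6 normal groups (F test, adjusted p = 0.00754). Given the shared exons, how such low Abcb1a values divide between the copies is uncertain.

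Abcb1b was low in MEP. MEP samples had 0.64, 0.40, 0.56 and 0.68 FPKM, against 7.05, 9.30, 7.17, 4.52 and 3.56 in CMP and 4.63, 5.43, 5.46, 4.77 and 4.30 in GMP. Every CMP and GMP sample exceeded every MEP sample, by 11.1-fold and 8.63-fold in the means (log2 2.16, SE 0.22, adjusted p = 1.85e-08, and 1.91, SE 0.22, adjusted p = 4.41e-08). LT-HSC, at 2.25, 3.32, 5.14, 1.73 and 2.92 FPKM, was below ST-HSC at 7.82, 5.04, 5.66, 2.79 and 5.90. These ranges overlapped, and the difference of -0.67 (adjusted p = 0.044) passed the p-value but was below 2-fold. It did not pass under median-ratio scaling (adjusted p = 0.0657), without the filter (0.0755) or after correction for GC content and length (0.0739). Nor did it without replicates 4 and 5 of both groups (0.0645) or in a fit of the compared groups alone (0.385). With the replicate block (0.0425) and a pseudocount of 0.1 (0.0471) it passed. Leukaemias had Abcb1b RNA at 2.49, 3.21 and 2.03 FPKM in STHSC:MA9, 1.01 to 7.28 (median 4.95) in MPP:MA9, 8.61, 6.88, 4.28 and 5.12 in CMP:MA9 and 2.26 to 9.45 (median 6.41) in GMP:MA9. None of the 4 comparisons with the normal cell was called, although that of STHSC:MA9 was with a pseudocount of 0.1. The log2 values were -0.81 (adjusted p = 0.0424) for ST-HSC, -0.64 (adjusted p = 0.0341) for MPP, 0.00 for CMP and 0.19 (adjusted p = 0.582) for GMP. The lowest MPP:MA9 value, 1.01 FPKM, was again replicate 2, and without it the MPP difference was -0.36 (adjusted p = 0.181).

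Abcc3 (ENSMUSG00000020865, chr11:94204612-94254311, minus strand), which exports glucuronides and bile acids, was called higher in leukaemia at the GMP origin, from a low level. GMP samples had 0.16, 0.19, 0.04, 0.08 and 0.68 FPKM and GMP:MA9 samples 0.72 to 3.72 (median 2.10), without overlap (log2 1.23, SE 0.32, adjusted p = 0.00122). CMP samples had 0.14, 0.19, 0.25, 0.56 and 0.17 and CMP:MA9 samples 3.01, 1.76, 0.82 and 0.96, also without overlap (log2 1.00, SE 0.35, adjusted p = 0.0147), and not called. In ST-HSC the values 0.38, 2.63, 0.32, 2.40 and 0.00 straddled the 2.51, 2.57 and 2.59 of STHSC:MA9 (log2 0.93, adjusted p = 0.043). MPP ranged from 0.41 to 1.60 (median 0.81) and MPP:MA9 from 0.90 to 6.13 (median 2.05), with a difference of 0.90 (adjusted p = 0.00991). In ratios of mean FPKM, which carry no pseudocount, Abcc3 was 2.23-fold, 3.29-fold, 6.25-fold and 8.82-fold higher at the ST-HSC, MPP, CMP and GMP origins, the last being 17.3-fold without GMP replicate 5. With a pseudocount of 0.1 in place of 1 it was called at all 4 origins, with log2 differences of 1.98, 1.40, 2.19 and 2.77. Averaged over the 4 origins Abcc3 differed by 1.02 (SE 0.17, adjusted p = 1.78e-06) and Abcg2 by -3.44 (SE 0.13, adjusted p = 2.15e-23). They were the 2 of 8 transporters called in that average, 1 higher and 1 lower (23.4% of all genes, 12.1% higher and 11.3% lower). Leaving out any of 9 samples took the Abcc3 average below 2-fold, to as little as 0.96.

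Abcc4 (ENSMUSG00000032849, chr14:118881914-119105441, minus strand), an exporter of cyclic nucleotides, prostaglandins and thiopurine nucleotides, marked GMP among normal cells. GMP samples had 23.6, 24.8, 23.3, 20.4 and 19.9 FPKM, above the 7.53 to 13.4 of all 25 other normal samples. GMP exceeded MEP (log2 1.10, SE 0.13, adjusted p = 2.64e-08), and CMP minus GMP was -0.96 (SE 0.12, adjusted p = 3.37e-07), short of 2-fold. It was called with a pseudocount of 0.1 (-1.01), under median-ratio scaling (-1.17), after correction for GC content and length (-1.25) and without CMP replicate 2 (-1.02). In the leukaemias STHSC:MA9 had 14.5, 18.8 and 18.0 FPKM, all above the 9.37 to 13.4 of ST-HSC (log2 0.59, SE 0.14, adjusted p = 0.000876), while GMP:MA9, at 9.37 to 17.9 (median 13.6), was all below GMP (log2 -0.68, SE 0.12, adjusted p = 1.03e-05). MPP:MA9 and CMP:MA9, with means of 12.0 ± 1.46 and 11.8 ± 0.78 FPKM (SD), differed from MPP and CMP by -0.02 and 0.09. None of these changes reached 2-fold.

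Abcc1 (ENSMUSG00000023088, chr16:14361651-14475830, plus strand), which exports leukotriene C4 and glutathione conjugates, had its highest mean in ST-HSC (25.2 FPKM) and its lowest in MEP (11.9). ST-HSC had 26.5, 30.6, 23.3, 17.3 and 28.6 FPKM, and STHSC:MA9 12.0, 19.5 and 17.5. The log2 difference was -0.60 for ST-HSC (adjusted p = 0.0102), -0.80 for MPP (adjusted p = 2.71e-05), -0.50 for CMP (adjusted p = 0.0163) and 0.19 for GMP (adjusted p = 0.309). No difference was called, although MPP:MA9 (6.37 to 15.01 FPKM, median 12.65) lay below all MPP samples (17.7 to 23.7, median 21.3), and CMP:MA9 (13.3, 13.5, 16.6 and 14.2) below all CMP samples. The lowest MPP:MA9 value was that of replicate 2, without which the MPP difference was -0.64 (adjusted p = 0.000135). Under median-ratio scaling the CMP value was -0.33 (adjusted p = 0.0916).

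Abcc5 (ENSMUSG00000022822, chr16:20331376-20426467, minus strand), which carries cyclic nucleotides and nucleotide analogues, was lowest in MPP. MPP ranged from 6.17 to 12.6 FPKM (median 8.94), below every sample of ST-HSC (25.2, 16.8, 20.8, 16.7 and 16.8) and of CMP (15.7, 14.6, 17.6, 26.4 and 19.4). ST-HSC minus MPP was 1.06 (SE 0.18, adjusted p = 0.000137) and MPP minus CMP -1.01 (SE 0.18, adjusted p = 0.000228). Both lay close to 2-fold. ST-HSC minus MPP was 0.96 to 0.98 without ST-HSC replicate 1, MPP replicate 3 or MPP replicate 6. MPP minus CMP was -0.99 to -0.88 without MPP replicate 3 or 6 or CMP replicate 4 or 5, all below 2-fold, and -0.96 under median-ratio scaling. MPP:MA9 reached 8.28 to 24.1 FPKM (median 18.0), 0.89 above MPP (SE 0.24, adjusted p = 0.00172), which was not called, and was called without MPP:MA9 replicate 6 (1.08) and after the correction for GC content and length (1.00). At the other origins the difference was -0.42 (ST-HSC), 0.08 (CMP) and 0.31 (GMP), with adjusted p of 0.27 to 0.836. STHSC:MA9 was uneven, with 28.6, 9.15 and 10.2 FPKM.

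Whether a transporter's change depended on the cell of origin was tested by an F test over the 4 leukaemia minus normal differences. 6 of 8 transporters passed, with 38% of all genes passing. The adjusted p was 1.5e-05 for Abcc4, 4.26e-05 for Abcg1, 0.000519 for Abca1, 0.00365 for Abcc1, 0.0129 for Abcg2 and 0.0404 for Abcc5, and 0.118 for Abcb1b and 0.905 for Abcc3. For Abca1 and Abcg1 the differences ran from ST-HSC through MPP and CMP to GMP in rank order, from -1.75 to 0.28 and from -1.28 to 0.71. Abcc1 did not pass after correction for GC content and length (adjusted p = 0.203), and Abcc5 not without the filter (adjusted p = 0.0707). Abcc5 also did not pass without any one of ST-HSC replicates 1 and 3, MPP replicates 2, 3 and 6, STHSC:MA9 replicates 2 and 3, or MPP:MA9 replicates 1, 3, 4 and 5 (adjusted p = 0.0526 to 0.125). Abcb1b passed without GMP:MA9 replicate 2 (adjusted p = 0.0341).

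To ask whether leukaemias of different origin differed in transporter levels, all 6 pairs of leukaemia groups were compared. None of 36 tests over 6 transporters was called by limma, and the lowest adjusted p was 0.0673 (Abcc4, STHSC:MA9 minus MPP:MA9, log2 0.48, 95% interval 0.13 to 0.82). Over all 12128 genes 1.05% of such tests were called. At an unadjusted p under 0.05 there were 6 transporter tests, and the share of all genes under that looser rule is not given. Abcb1a, Abcg2 and Abca1 were below the filter in leukaemias. The F test over the 4 leukaemias passed for none of the 6 transporters (lowest adjusted p = 0.137, Abcc4), beside 13.3% of all genes. Intervals were wide for some pairs, such as -1.87 to -0.11 for Abcb1b in STHSC:MA9 minus CMP:MA9 (adjusted p = 0.263) and -1.48 to -0.18 for Abcg1 in STHSC:MA9 minus MPP:MA9 (adjusted p = 0.0913), both of which reach beyond 2-fold.

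To follow the transporters along normal differentiation, 6 pairs of cell types were compared. One of them, GMP and MEP, is a pair of sister lineages and not a step, and it shares its samples with the pairs of CMP with each. Of 42 tests on 7 transporters 10 were called (23.8%), 7 higher in the first-named cell and 3 lower, beside 8.94% of all tests over 12367 genes. No transporter was called from LT-HSC to ST-HSC (2.26% of genes; adjusted p under 0.05 for Abcb1b only), 1 from ST-HSC to MPP (3.44%), 1 from MPP to CMP (4.32%), 2 from CMP to GMP (11.2%), 2 from CMP to MEP (11.8%) and 4 from GMP to MEP (20.5%). The F test over the 6 groups passed for all 7 transporters, and for 78.4% of all genes. Abcg1 had the lowest adjusted p in that test (7.59e-12), followed by Abcb1b (2.85e-09), Abcc4 (1.91e-08) and Abcg2 (2e-07).

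**Figure D4:**
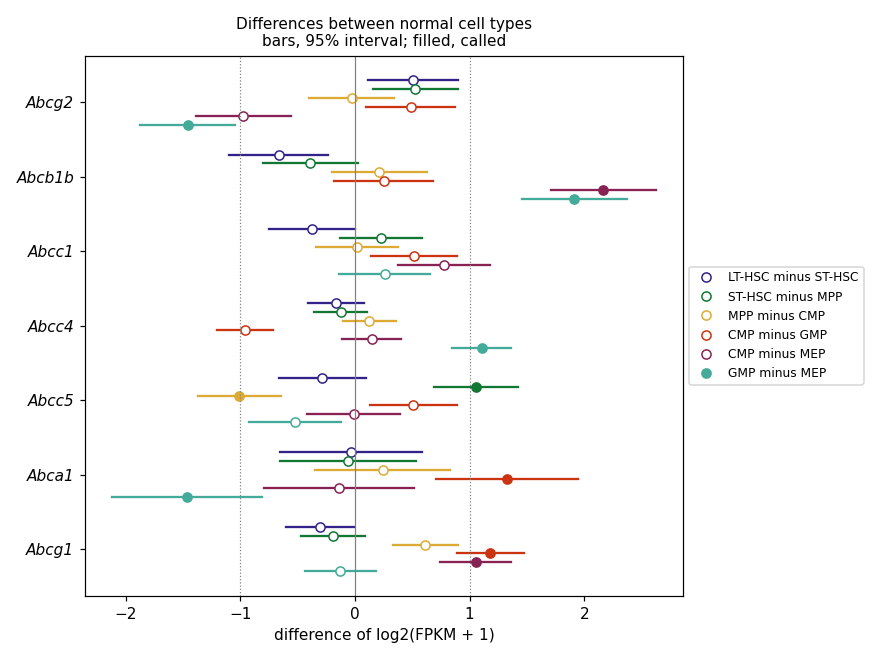
Difference of log2(FPKM + 1) between normal cell types (horizontal axis) for the 7 tested transporters. Bars are 95% intervals, colours are the 6 comparisons, filled points were called, and dotted lines mark 2-fold. The largest values are those of Abcb1b against MEP, 2.16 and 1.91, and Abcc5 is called on both sides of MPP.

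The rest of the ABC family was examined beside the drug transporters. Of 44 other ABC genes 25 passed the filter. In the average over the 4 origins, leukaemias were set against the 4 normal groups they came from. Of the 25 genes 8 were higher and 2 lower in leukaemia, beside 23.4% of all genes called. Another 13 passed the p-value alone, for which no share over all genes is given. The median of the 25 was 0.12, beside -0.09 over all genes. No called gene separated all leukaemias from all samples of these normal groups. Among the called genes, named here after their values were seen, were Abca13, Abca9, Abca6 and Abca7 of 6 tested in the lipid-transporting ABCA subfamily, the peroxisomal fatty acid transporter gene Abcd2, and Abcc2, Abcg3, Abcb4 and Abcg4. Abca13 had a mean of 28.6 FPKM in leukaemias and 2.28 in these normal groups (log2 3.39, SE 0.30, adjusted p = 1.02e-12), and Abca9 26.2 and 1.4 (log2 3.35, SE 0.25, adjusted p = 9.61e-15). Abcd2 had 27.3 and 6.27 FPKM (log2 2.34, adjusted p = 4.87e-17) and Abcc2, which exports bilirubin glucuronides, 2.74 and 0.54 (log2 1.28, adjusted p = 1.06e-10). Abcb4, the phosphatidylcholine translocator and a close relative of the Abcb1 genes, had 0.14 and 3.41 (log2 -1.44, adjusted p = 3.73e-12), and Abcg4, a sterol transporter, 0.19 and 2.68 (log2 -1.04, adjusted p = 2.43e-06). None of the 4 ABCE and ABCF genes, which act in translation, was called, and their median was -0.57. Among normal cells 4 of 24 tested were called between stem and multipotent cells and committed progenitors, beside 6.43% of all genes. Abcg3 was 4.26 FPKM against 0.17 (log2 1.95, adjusted p = 9.78e-11), with no overlap, Abca4 was also higher, and Abcb6 and Abcg4 were lower.

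**Figure D5:**
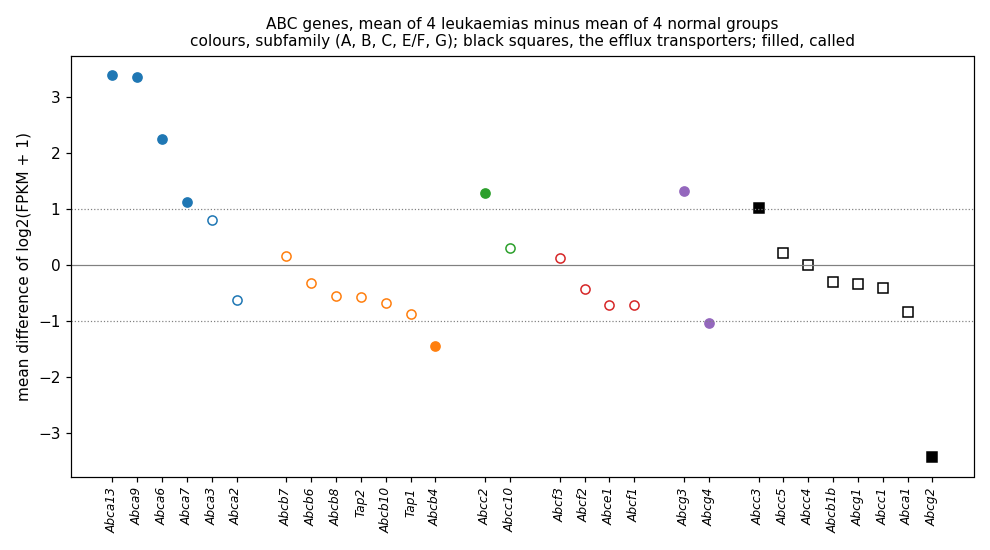
Average difference of log2(FPKM + 1) between the 4 leukaemias and their 4 normal groups (vertical axis) for the other tested ABC genes of subfamilies A, B, C, E, F and G, coloured by subfamily, and the 8 tested drug and sterol transporters (black squares). Filled symbols were called and dotted lines mark 2-fold. Abca13 and Abca9 lie highest, at 3.39 and 3.35, and Abcg2 lowest, at -3.44.

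Genes that work with these transporters were counted by list in the same average. In this average 12.1% of all genes were called higher and 11.3% lower, the background for each count of called genes. Of 10 tested sterol sensors and LXR target genes, 2 were higher in leukaemia on average (Rxra, 8.77 against 2.31 FPKM, and Pltp, 7.74 against 0.44) and 1 lower (Scd2, 18.9 against 52.0), with a median of 0.21. Nr1h2, an LXR gene, was 31.6 against 20.9 FPKM (log2 0.59, adjusted p = 9.82e-08). None of 14 cholesterol synthesis and uptake genes was called, and the median was -0.17. The p-value alone was passed by 10, for which no share over all genes is given. Of 15 genes of glutathione handling and NRF2 response, 4 were higher (Hmox1, Gsr, Mgst1 and Gstm1) and 1 lower (Gclm). Hmox1, which degrades haem, had 60.1 FPKM in leukaemias (16.7 to 151) and 3.46 in the 4 normal groups (0.80 to 11.2), without overlap. Of 8 eicosanoid enzymes, 4 were higher (Hpgd, Alox5, Alox5ap and Ptges). Hpgd, which inactivates prostaglandins, had 789 FPKM (386 to 1164) against 1.76 (0.29 to 4.83), a log2 difference of 8.22 (SE 0.13, adjusted p = 1.82e-34). Alox5ap, needed for leukotriene synthesis, had 1020 FPKM against 287 (adjusted p = 1.11e-18).

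Genes of nucleoside drug handling were read because Abcc4 and Abcc5 export nucleotide analogues. Beside 23.4% of all genes called in the average, of 13 tested 1 was higher (Samhd1, which hydrolyses deoxynucleotides, 184 against 54.9 FPKM) and 1 lower (Dctd, deoxycytidylate deaminase, 6.79 against 45.6 FPKM, log2 -2.67, adjusted p = 8.43e-18, without overlap). Of 9 tested genes on a list of drug transporter regulators, 3 were higher, Pparg, Ppard and Mvp, the last encoding a vault protein and not a regulator. On the same list 1 was lower (Trp53, 72.7 against 170 FPKM, adjusted p = 9.13e-18). Among normal cells, stem and multipotent against committed (6.43% of all genes called), none of the sterol sensor, nucleoside or regulator genes was called, while 1 cholesterol gene was lower, 1 glutathione gene higher (Hmox1), and 3 eicosanoid genes higher and 1 lower.

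Marker genes of other cell types moved with the same comparison. On average over the origins, with 12.1% of all genes called higher and 11.3% lower, 9 of 10 granulocyte and 7 of 9 monocyte and macrophage markers were higher in leukaemia. All 10 erythroid markers, 6 of 7 megakaryocyte, 8 of 8 MEP, 6 of 8 stem cell and 3 of 4 MPP markers were lower, and 1 stem cell marker was higher. Of 8 GMP markers 2 were higher and 1 lower, of 4 B cell markers 2 were lower, and of 2 T and NK cell markers 2. The monocyte gene Adgre1 did not overlap (42.8 FPKM against 1.57), Mpo fell from 4670 to 65.4 and Hlf from 58.8 to 0.40. The summed monocyte and macrophage list ran from 549 to 1715 FPKM in leukaemias, 1275 to 2146 in GMP and 5.02 to 449 in the other normal groups. The erythroid list sum reached 27831 FPKM in ST-HSC, beside 964 in MPP, 866 in CMP and 224 in GMP, and 582 in leukaemias. The macrophage genes C1qa and Mrc1 stayed at or below 0.99 and 0.74 FPKM in leukaemias. The part of cell composition in the transporter differences was not tested. Among normal cells, 7 of 9 stem cell, 5 of 8 megakaryocyte and 2 of 4 MPP markers were higher in stem and multipotent cells, and none was lower (6.43% of all genes called).

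The genes whose pattern over the 49 samples was most like each transporter were sought among 12155 genes by Pearson correlation of log2(FPKM + 1). Abcg2 was followed most closely, by Slc43a1 (0.97) and Cdc42bpa (0.96). For Abcb1b they were H2-DMa and Eml4 (both 0.87), for Abcc4 Afap1 (0.88) and Tmx4 (0.87), and for Abcg1 Erg (0.83) and Gcnt2 (0.81). Abcc1 came closest to Cntln (0.83) and Arhgap18 (0.82), Abcc3 to Cln3 (0.83) and Zbtb42 (0.82), and Abca1 to Rab37 (0.81) and Lat (0.79). Abcc5 had no such close match, with Fbxw2 (0.66) and Pon2 (0.62) at the head. These values describe samples that share groups and libraries. Abcb1a and Abcb1b correlated at 0.06 over all samples.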

How the data were processed

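RNA from 49 samples had been amplified (NuGEN Ovation), sequenced on an Illumina instrument and quantified per gene. The authors deposited FPKM values for 38253 Ensembl genes with 2 decimals, and RSEM and the mm9 build are named in the submitters' processing notes. Annotation and aligner of these values are not given in the sources used here. The table has 68 columns of values, and the 19 whose names belong to no labelled sample were left aside. Symbols and positions were taken from GENCODE M1 on NCBIM37 (33068 genes matched), upstream sequences from RefSeq on GRCm38.p6.

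Labels gave the group and the replicate number of each sample. The transporters, gene lists and tests were chosen with earlier results of these data known. Values were compared as log2(FPKM + 1), which understates the change of low genes, after removal of genes whose mean in the samples of a fit was below 1 FPKM. Two-sided tests used limma 3.58.1 (R 4.3.3) with its variance trend, adjusted by Benjamini-Hochberg over all genes of the fit, which held 8 groups for leukaemia against normal, 4 leukaemia groups or 6 normal groups. The main limma fit was tested on simulated data, with the first contrast of each fit scored. The F tests, the alternatives and the steps for depth, sequences and ratios were not tested in this way. Sequences and figures were made in Python 3.11.15 with pandas 2.3.3, numpy 2.4.6 and matplotlib 3.10.9. Of the gene lists, up to 4 called genes without overlap between the sides were to be named, by size of change (5 in each direction for other ABC genes), and all further names were chosen after their values were seen.

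Replicate numbers are shared by groups. Deviations of same-numbered samples correlated over 0.1 in every pair only for LT-HSC and ST-HSC (mean 0.288, lowest 0.142, 5 pairs), so the number was used as a block in an alternative. Other alternatives were a pseudocount of 0.1, no filter, median-ratio scaling, fits of only the groups compared, no fold threshold, removal of trends with GC content and length (known for 86.4% of genes), and leaving out each sample. Leaving out ST-HSC replicates 4 and 5 from the leukaemia comparison, and leaving out each sample from ratios of mean FPKM, were chosen after seeing the data. Relative depth was estimated from the ratios of low values between samples, and 83.2% of sample pairs lay within 0.1 (log2) of the fitted depths. It gives no counts, so no counting interval was computed. No samples held identical values. Some genes of the lists are not reported here by name.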

Additional observations from a re-analysis of the deposited data

Results flagged for a closer look

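In 6 of 81 groups of 4 to 6 samples, 1 sample lay far from the others by Dixon's test on the log2(FPKM + 1) scale, which chance gives in about 1 of 20 groups. They were Abcb1a in CMP replicate 2 (0.21 FPKM, nearest other 0.04) and in CMP:MA9 replicate 2 (0.03, all others 0.00), Abcc1 in MPP:MA9 replicate 2 (6.37, nearest other 12.05), Abcc3 in GMP replicate 5 (0.68, nearest other 0.19), Abcc5 in MEP replicate 2 (19.95, nearest other 18.2) and Abcg1 in MPP replicate 1 (17.8, nearest other 20.75). Both Abcb1a samples are at levels where few reads decide the value.

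For 6 of 8 transporters the leukaemia minus normal difference was not the same at all 4 origins (limma F test, adjusted p over all genes). The same test passed for 38% of all genes. The adjusted p was 0.0129 for Abcg2, 0.00365 for Abcc1, 1.5e-05 for Abcc4, 0.0404 for Abcc5, 0.000519 for Abca1 and 4.26e-05 for Abcg1. Abcc1 did not pass after correction for GC content and length (adjusted p = 0.203). Abcc5 did not pass without the filter (adjusted p = 0.0707) or without some single samples. Abcg2 fell at every origin, by 2.66 on the log2 scale at GMP and by 3.91 at CMP. Abcc4 and Abcg1 had opposite signs at the ST-HSC and GMP origins, 0.59 and -0.68 for Abcc4 and -1.28 and 0.71 for Abcg1.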

How the results depend on the processing

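No transporter changed direction where it was called. With no fold threshold 22 leukaemia against normal tests passed (7 higher, 15 lower) in place of 8, and 20 normal cell tests (13 higher, 7 lower) in place of 10. In the main fits 25.4% and 8.94% of such tests over all genes were called. Shares of all genes under the alternatives are not given here, so the counts in this section describe the settings only. With the replicate number as a block the counts were 8, 0 and 8 for leukaemia against normal, leukaemia pairs and normal cells, and 6 transporters passed the test among origins. The block took the Abcc5 steps around MPP (0.98 and -0.93) and the Abcc3 average (0.97) below 2-fold. With it, 5 uncalled differences no longer had an adjusted p below 0.05: Abcg2 in ST-HSC minus MPP (0.0994) and CMP minus GMP (0.0695), Abcb1b (0.0586) and Abcc3 (0.0960) at the ST-HSC origin, and Abca1 at the CMP origin (0.0554). The labels do not say what a number marks. Leaving out single samples gave 8 to 10, 0 to 0 and 8 to 11 calls and 5 to 7 transporters among origins. A pseudocount of 0.1 gave 12 calls (4 higher, 8 lower) and 12 (7 higher, 5 lower), median-ratio scaling 9 (2 higher, 7 lower) and 9 (5 higher, 4 lower), and correcting for GC content and length gave 10 (3 higher, 7 lower) and 10 (5 higher, 5 lower). With the block added to that correction, 10 and 8 (4 higher, 4 lower) were called. Leukaemia pairs gave 0 calls under each. The pseudocount of 0.1 moved the Abca1 changes to -3.30 (ST-HSC) and -2.12 (MPP), Abcg2 at CMP to -6.24 and Abcc3 to 1.98, 1.40, 2.19 and 2.77 (ST-HSC, MPP, CMP and GMP), all called. Abcb1b at ST-HSC was then also called. Median-ratio scaling shifted the median of all genes by 0.15 for CMP:MA9 minus CMP, 0.12 for LT-HSC minus ST-HSC, 0.10 for ST-HSC minus MPP, -0.19 for CMP minus GMP and -0.14 for CMP minus MEP. The Abcc3 average was below 2-fold (0.96 to 1.00) without any of ST-HSC replicates 1, 3 or 5, MPP replicate 4, MPP:MA9 replicates 2 or 3, CMP:MA9 replicate 1 or GMP:MA9 replicates 2 or 6. Abcc3 was over 2-fold (1.00 to 1.17) without any of ST-HSC replicates 2 or 4, MPP replicate 1, MPP:MA9 replicates 4 or 6, CMP replicate 4 or CMP:MA9 replicates 3 or 4, each at its own origin. The cause was not tested. Depth limits Abcb1a, and Abcg2 and Abca1 in leukaemias, where values near 0 rest on few reads.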
